A study of Mus musculus with 3 samples.

Results

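Toll-like receptors are germline-encoded sensors of microbial molecules, and 8 of them, with the adaptor Myd88 and the chaperone Unc93b1, were followed here by name in wild-type and Pax5-/- mouse pro-B cells (Pax5 is a transcription factor of the B lineage). All 10 genes were found by their Entrez numbers among the 27179 genes of the count table, and each had at least 1 count in some library. Gene expression was measured by RNA sequencing of total RNA in 2 Pax5-/- samples, both male, and 1 wild-type sample, which was female, all from C57BL/6 bone marrow. Their B220+ cells (B220 marks the B lineage) had been expanded on a layer of OP9 stromal cells. An IgM- fraction taken at day 7 by immunomagnetic depletion is given for both Pax5-/- samples and is not named for the wild type, so genotype, sex and the stated depletion cannot be told apart in any difference below. The labels call the Pax5-/- samples independent and do not describe the allele. The p-values rest on the spread between those 2 samples.

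Toll-like receptors bind their ligands with a horseshoe of leucine-rich repeats and signal through a cytoplasmic TIR domain. Tlr2, which pairs with Tlr1 or Tlr6 to bind bacterial lipopeptides, and Tlr4, the receptor for lipopolysaccharide, act from the cell surface. Tlr3 (double-stranded RNA), Tlr7 (single-stranded RNA), Tlr9 (unmethylated CpG DNA) and Tlr12 (the protozoan protein profilin) act in endosomes and need Unc93b1, a membrane protein that carries them there from the endoplasmic reticulum. Myd88 is the adaptor of all of these receptors except Tlr3, which signals through Ticam1. In B cells, Toll-like receptors are known for driving proliferation and antibody secretion independently of T cells.

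The Pax5-/- libraries held 6487846 and 6697879 counts and the wild-type library 6530057. Pax5 itself had 1601 counts in the wild type and 417 and 551 under the Pax5-/- label (log2 fold change -1.78, adjusted p = 0.0107, edgeR). It was lower there but far from 0. The count covers the whole gene, so reads from exons outside a deleted part would be included and no deleted part was checked. The B-lineage markers were present in every library, 9 of 9 above 0, and summed to 5189 CPM in wild-type cells and 3346 and 3688 CPM in Pax5-/- (CPM are counts scaled to library size, here with TMM factors). The list was split: Cd79a, Cd79b, Ebf1 and Vpreb1 fell, Rag1, Dntt, Il7r and Ptprc rose, and Igll1 was not called. Counts given in a row are those of Pax5-/- sample 1, sample 2 and the wild type, in that order. Both Pax5-/- samples differed widely in interferon-stimulated genes: 14 such genes summed to 2911 CPM in sample 1, 180 CPM in sample 2 and 1067 CPM in the wild type. Results that this touches are given by library.

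Of the 9 genes tested, 4 fell in Pax5-/-, 0 rose and 5 were not called (adjusted p under 0.05 by the Benjamini-Hochberg method over 11783 genes, from the quasi-likelihood test of edgeR). In either direction 18.1% of all genes tested were called, 8.55% lower and 9.53% higher. The genes that fell were Tlr4 at the surface, Tlr9 and Tlr12 in endosomes, and Unc93b1. Tlr4 and Tlr12 reached the minimum count of 10 only in the wild-type library. Both thus entered the test through the group where they are high, and a call of higher was hardly open to them. Tlr7 had the opposite direction in both Pax5-/- samples without passing the test. It was the 1 gene higher at an unadjusted p under 0.05, and DESeq2 and limma-voom also called 0 higher. Tlr1 had too few counts to be tested. The median log2 fold change was -0.66 over the 3 tested surface receptors and -1.15 over the 4 endosomal ones, beside 0.01 over all genes tested. The order of these medians turned with no filter on low counts (-1.57 at the surface, -1.14 in endosomes) and without Pax5-/- sample 2 (-1.10 and -0.61). Called and uncalled receptors were found at both places, and the difference between the places was not tested.

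**Figure D1:**
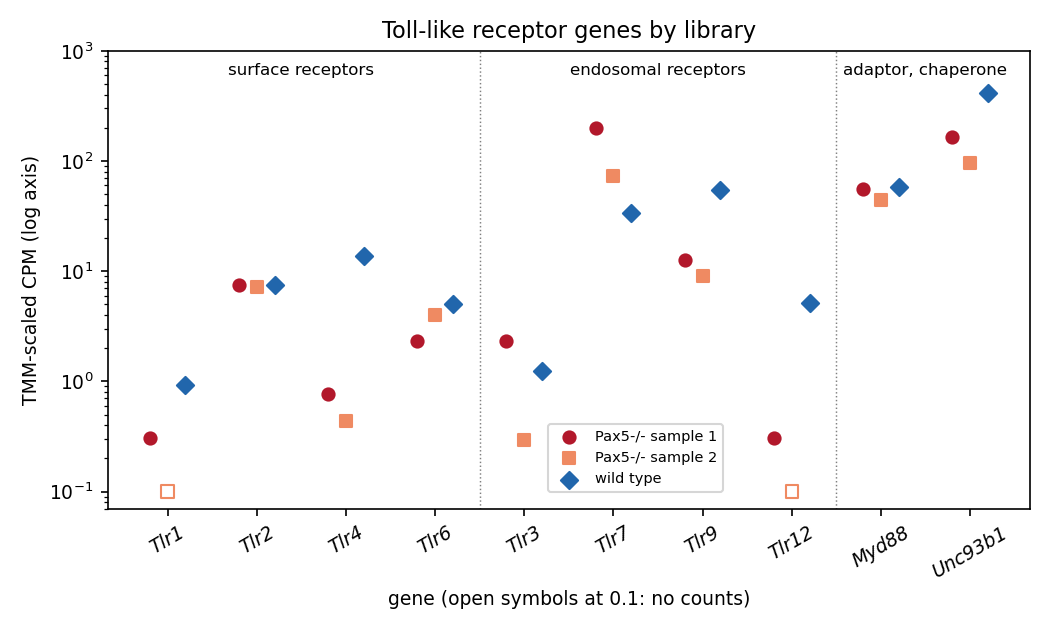
Level of each gene in each library, in TMM-scaled CPM on a log axis, with surface receptors, endosomal receptors and the adaptor and chaperone set apart. Tlr4, Tlr9, Tlr12 and Unc93b1 lie lower in both Pax5-/- samples than in the wild type, Tlr7 lies higher in both (200 and 72.8 against 33.7 CPM), and Tlr2 and Myd88 lie close together in all 3.

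Among the surface receptors, Tlr4 (Entrez 21898; chromosome 4, 66827551 to 66846581, GRCm38, plus strand) had 88 counts in wild-type cells and, in Pax5-/- cells, 5 in sample 1 and 3 in sample 2. That is 0.605 ± 0.234 CPM (SD, n = 2) against 13.7 CPM. The 1 wild-type value stood far above both Pax5-/- values. The log2 fold change was -4.47 (SE 0.44, adjusted p = 0.00925, edgeR). The pooled ratio of wild type to Pax5-/- was 22.8, with an exact 95% interval of 11.1 to 54.5 that covers counting error only. Tlr4 is also a receptor of myeloid and stromal cells, and markers of such cells differed between these libraries. The 8 neutrophil markers summed to 70.9 CPM in wild-type cells, where all 8 were above 0, and to 3.70 and 7.78 CPM in Pax5-/-. In the wild type, Elane and Ly6g had only 2 counts each and Camp 7, and these genes were too low to be tested. S100a9 had 232 counts in the wild type and Ngp 115, and both had 0 in Pax5-/-. Not all of the list was lost: Ltf had 11, 26 and 49 counts and Mpo 12, 27 and 18. Neither Ltf nor Mpo was called (adjusted p = 0.145 and 0.956, edgeR). The 8 stromal markers summed to 8.17 and 6.75 CPM against 17.8 CPM, with Dcn and Lum at 0 in every library. Among them Cxcl12 had 18, 7 and 60 counts and Pdgfrb, in the opposite direction, 15, 18 and 4, and neither was called (adjusted p = 0.0693 and 0.115, edgeR). The 7 macrophage markers summed to 30.7 and 41.8 CPM against 22.1 CPM and were mixed. Lyz2, with 92, 128 and 28 counts, was the one called, and it rose (adjusted p = 0.0314, edgeR). Csf1r, the receptor of the macrophage growth factor, had 8, 4 and 22 counts and was not called (adjusted p = 0.116, edgeR). Fcgr1 was at 0 throughout, and Adgre1 and Mertk never exceeded 1 count. The part of these cells in the Tlr4 result was not tested. In bulk RNA, fewer cells of a type and less RNA per cell cannot be told apart.

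Tlr2 (Entrez 24088; chromosome 3, 83836272 to 83841824, minus strand) had 49, 49 and 48 counts, or 7.55, 7.19 and 7.48 CPM, in Pax5-/- samples 1 and 2 and then the wild type. The wild-type value lay between those of both Pax5-/- samples, and the log2 fold change was -0.02 (SE 0.29, adjusted p = 0.964, edgeR). In the pooled counts the ratio of Pax5-/- to wild type was 0.985 with a counting interval of 0.691 to 1.42. Counting error alone thus leaves room for a ratio as low as 0.691 or as high as 1.42.

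The partners of Tlr2 were scarce. Tlr6 (Entrez 21899; chromosome 5, 64953092 to 64970942, minus strand) had 32 counts in wild-type cells and, in Pax5-/- cells, 15 in sample 1 and 27 in sample 2, with -0.66 as log2 fold change (SE 0.49, adjusted p = 0.395). Both Pax5-/- samples were below the wild type, but the call was not made. Tlr1 (Entrez 21897; chromosome 5, 64924680 to 64933600, minus strand) had 2, 0 and 6 counts. Its pooled ratio of wild type to Pax5-/- was 6.22 with a counting interval of 1.11 to 63.0, and it has no test.

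Counts of Tlr1 and Tlr6 carry a further limit, since these neighbouring genes share exact sequence. Of the 50-base words of the longest coding transcript, 15.3% in Tlr1 and 12.6% in Tlr6 also occur in a transcript of another gene (GENCODE M21 models). The longest identical run between both coding sequences is 229 bases, shown here because a read inside it fits either gene. It covers bases 1468 to 1696 of the 2385 coding bases of Tlr1 (chr5:64925537-64925765, minus strand, GRCm38) and bases 1507 to 1735 of the 2418 of Tlr6 (chr5:64953828-64954056, minus strand).

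Tlr1 and Tlr6: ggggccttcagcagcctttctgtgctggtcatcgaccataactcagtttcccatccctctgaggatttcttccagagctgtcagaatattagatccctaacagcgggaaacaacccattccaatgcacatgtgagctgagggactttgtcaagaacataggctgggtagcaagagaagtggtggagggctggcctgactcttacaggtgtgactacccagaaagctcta

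Among the endosomal receptors, Tlr9 (Entrez 81897; chromosome 9, 106222598 to 106226876, plus strand) had 350 counts in wild-type cells and, in Pax5-/- cells, 82 in sample 1 and 61 in sample 2. That is 10.8 ± 2.61 CPM (SD, n = 2) against 54.5 CPM. Both Pax5-/- samples lay well below the wild type. The log2 fold change was -2.34 (SE 0.25, adjusted p = 0.0111, edgeR), and the call held under all 9 other settings of the test.

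Tlr12 (Entrez 384059; chromosome 4, 128615446 to 128618619, minus strand) had 33 counts in wild-type cells and, in Pax5-/- cells, 2 in sample 1 and 0 in sample 2. Its pooled ratio of wild type to Pax5-/- was 34.2 with a counting interval of 8.75 to 294, and it was called lower at an adjusted p of 0.0370 (edgeR). The call held under all 9 other settings, but narrowly with library size alone (adjusted p = 0.0462, edgeR) and with DESeq2 (adjusted p = 0.0454). At 2 counts over both Pax5-/- samples the size of the fall is poorly known, and that interval covers counting error only.

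Tlr7 (Entrez 170743; chromosome X, 167303380 to 167330574, minus strand) had 216 counts in wild-type cells and, in Pax5-/- cells, 1297 in sample 1 and 496 in sample 2, or 200 and 72.8 CPM against 33.7 CPM. Both Pax5-/- samples were above the wild type, by 5.94-fold and 2.16-fold, and they differed from each other by a ratio of 2.75 (counting interval 2.48 to 3.05). The fitted log2 fold change was 2.02 (SE 0.70), and it did not pass (adjusted p = 0.126, edgeR). Under 9 other settings the adjusted p ranged from 0.0384 to 0.376, and only the likelihood ratio test called it. Tlr7 was the one gene of the 10 that was higher in both Pax5-/- samples than in the wild type.

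The spread in Tlr7 had the same order between the Pax5-/- samples as that of the interferon genes. This order was not particular to Tlr7. Unc93b1 (163 and 96.5 CPM), Tlr9 (12.6 and 8.95) and Myd88 (55.8 and 44.6) were also higher in sample 1 than in sample 2. Tlr6 was lower in sample 1 (2.31 and 3.96 CPM). A link to the interferon genes was not tested. Irf7, the interferon regulatory factor downstream of Tlr7 and Tlr9, had 280 counts in wild-type cells and, in Pax5-/- cells, 2361 in sample 1 and 77 in sample 2 (log2 fold change 2.10, SE 1.99, adjusted p = 0.501, and -1.95 with sample 1 left out). Of the 14 interferon-stimulated genes, a list drawn up after these values were seen, 13 were highest in Pax5-/- sample 1 and 13 lowest in sample 2. Of 7 markers of plasmacytoid dendritic cells, which are rich in Tlr7 and Tlr9, 6 were tested, 3 rose and 1 fell. Those that rose were Siglech, with 115, 182 and 18 counts, Ccr9, with 200, 176 and 21, and Pacsin1, with 61, 75 and 5. Spib, also a B-lineage factor, fell, with 249, 234 and 6083. The 7 markers summed to 1469 CPM in wild-type cells, of which Spib gave 948, and to 1142 and 423 CPM in Pax5-/-. Most of the Pax5-/- sums came from Bst2, at 786 and 126 CPM against 263, and Tcf4, at 260 and 199 against 251. Bst2 was thus split between the Pax5-/- samples, as most of the interferon-stimulated genes were. Neither Bst2 nor Tcf4 was called (adjusted p = 0.645 and 0.684, edgeR). The part of plasmacytoid dendritic cells in the Tlr7 and Tlr9 values was not tested. Tlr7 is X-linked and was higher in both male Pax5-/- samples than in the female wild type. As for every gene here, the difference in Tlr7 and the sex of the animals cannot be told apart.

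**Figure D2:**
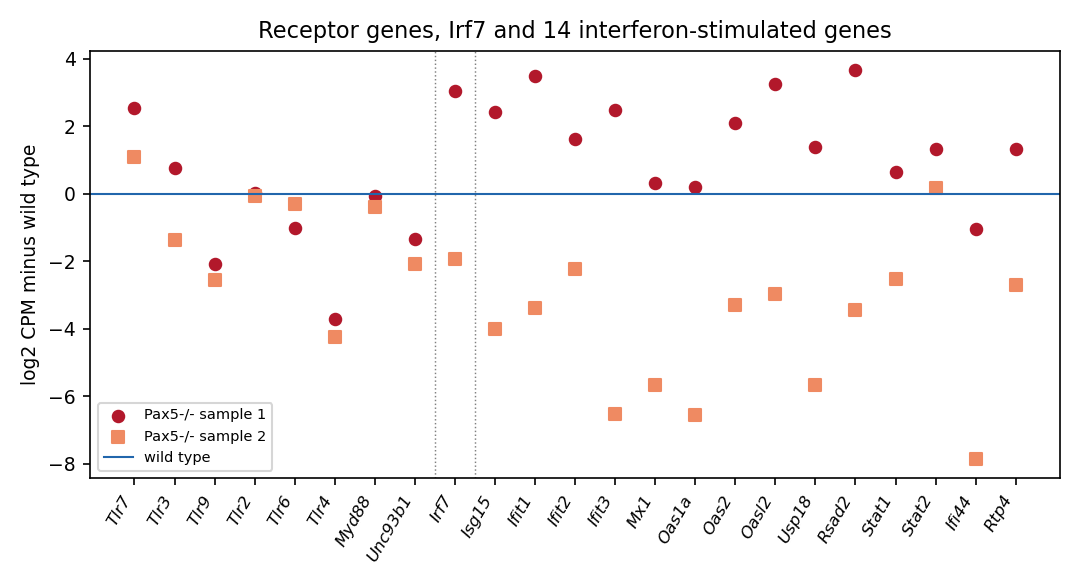
Difference in log2 CPM (prior count 2) from the wild-type library for each Pax5-/- sample, for 8 of the 10 Toll-like receptor genes, Irf7 and 14 interferon-stimulated genes. Tlr4, Tlr9, Unc93b1 and Tlr7 lie on one side of the wild type in both samples, whereas Irf7 (2361 and 77 counts against 280) and 12 of the 14 interferon-stimulated genes lie on opposite sides of it.

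Tlr3 (Entrez 142980; chromosome 8, 45395665 to 45411075, minus strand) was near the limit of these libraries, with 8 counts in wild-type cells and 15 and 2 in Pax5-/- samples 1 and 2. Pax5-/- sample 1 was above and sample 2 below the wild type, with a ratio between them of 7.88 (counting interval 1.83 to 71.0). The log2 fold change was 0.05 (SE 1.23, adjusted p = 0.982). An antisense gene, Gm45542, covers 381 of its exonic bases on the other strand, and without a stated strand setting reads of the pair cannot be separated.

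Unc93b1 (Entrez 54445; chromosome 19, 3935158 to 3949340, plus strand), on which the endosomal receptors depend, had 2653 counts in wild-type cells and, in Pax5-/- cells, 1060 in sample 1 and 658 in sample 2. That is 130 ± 47.3 CPM (SD, n = 2) against 413 CPM. Both Pax5-/- samples were below the wild type, at 0.395 and 0.234 of its level. The log2 fold change was -1.67 (SE 0.33, adjusted p = 0.0407, edgeR). The adjusted p ranged from 0.00135 to 0.119 over 9 other settings, and the call was lost with DESeq2, library size alone, robust dispersion estimation and an assumed biological coefficient of variation of 0.4.

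Myd88 (Entrez 17874; chromosome 9, 119335934 to 119340018, minus strand) had 374 counts in wild-type cells and, in Pax5-/- cells, 362 in sample 1 and 304 in sample 2. The levels were 50.2 ± 7.92 CPM (SD, n = 2) and 58.3 CPM, and the log2 fold change was -0.22 (SE 0.20, adjusted p = 0.485, edgeR). Both Pax5-/- samples lay below the wild type, at 55.8 and 44.6 CPM. Sample 1 differed from the wild type by less than the Pax5-/- samples differed from each other, and sample 2 by more. Exons of Acaa1a cover 290 exonic bases of Myd88 on the other strand. Acaa1a had 139 counts in wild-type cells and, in Pax5-/- cells, 131 in sample 1 and 177 in sample 2.

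**Figure D3:**
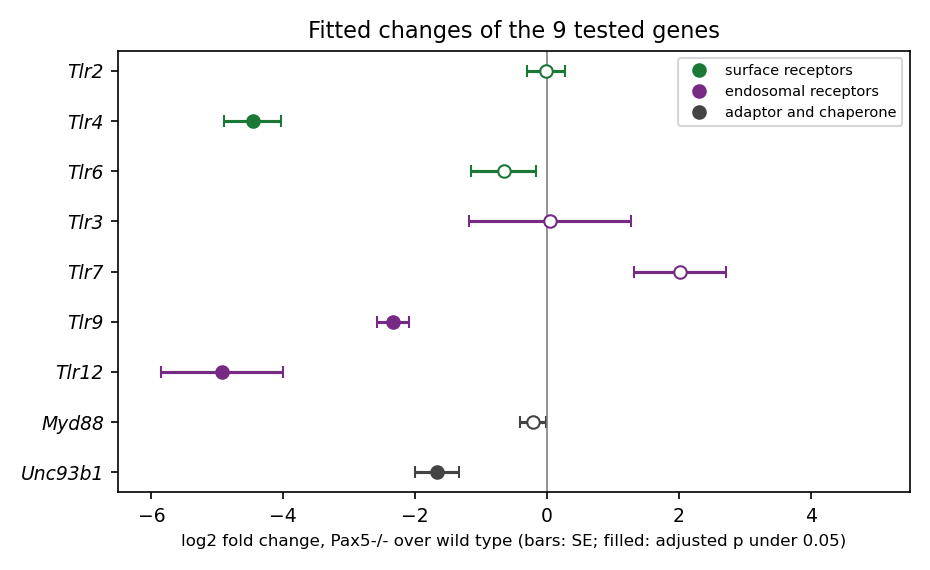
Fitted log2 fold change of Pax5-/- over wild type with its standard error for the 9 tested genes, filled where the adjusted p was under 0.05. Tlr12 (-4.93), Tlr4 (-4.47), Tlr9 (-2.34) and Unc93b1 (-1.67) are filled, and Tlr7 at 2.02 is open with a wide bar.

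The sequence upstream of the start was in RefSeq's promoter table (GRCm38.p6) for 7 of the 10 genes, in 9 windows. Shown are the 250 bases before the start of Tlr9, which fell, and of Myd88, which was not called. Capitals mark matches, on either strand, to GAGGAA (the box of the myeloid and B-lineage factor PU.1) or to a pair of GAAA words set 2 bases apart (as in the element of interferon regulatory factors). Tlr9 lies at chr9:106222348-106222597 on the plus strand, and Myd88 at chr9:119340019-119340268 on the minus strand.
Tlr9: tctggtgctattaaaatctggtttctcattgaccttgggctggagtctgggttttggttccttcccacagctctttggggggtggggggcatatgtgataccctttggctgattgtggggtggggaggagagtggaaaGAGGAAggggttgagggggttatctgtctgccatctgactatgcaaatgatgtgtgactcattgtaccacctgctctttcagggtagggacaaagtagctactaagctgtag
Myd88: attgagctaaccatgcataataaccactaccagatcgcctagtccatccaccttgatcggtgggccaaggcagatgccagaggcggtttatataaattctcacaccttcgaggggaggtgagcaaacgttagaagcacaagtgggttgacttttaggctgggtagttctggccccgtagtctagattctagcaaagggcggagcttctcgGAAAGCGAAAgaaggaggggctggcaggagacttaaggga
The Tlr9 window held 1 match to GAGGAA, 112 bases before the start, a motif found in 23.3% of 32851 windows of that length. The Myd88 window held 1 such GAAA pair, 40 bases before the start, a motif found in 2.98% of windows. Neither window held GCNTGAC, a core of the Pax5 motif that 8.79% of windows hold, nor TCCC set 2 bases before GGGA, the core of the EBF1 motif, which 0.779% hold. Over all 9 windows, the Pax5 core was in 1, a window of Tlr6 (20 bases before the start), and the EBF1 core in 0. The Tlr6 windows (chr5:64959167-64959416 and, with the Pax5 core, chr5:64960049-64960298) lie inside the span given above for that gene, at internal starts. GAGGAA was in 2, of Tlr9 and Tlr1, and the GAAA pair in 2, of Myd88 and Tlr6. The motifs do not overlap in the windows shown, and a match is a description of letters, not a bound site.

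The levels of different genes were compared per kilobase of the gene length in the files. In the wild type the order of the receptors was Tlr9 at 15.7 CPM per kilobase, Tlr7 at 8.98, Tlr4 at 3.56, Tlr2 at 2.62, Tlr6 at 1.92, Tlr12 at 1.62, Tlr1 at 0.364 and Tlr3 at 0.288. In Pax5-/- samples 1 and 2, Tlr7 was first, at 53.4 and 19.4 CPM per kilobase, then Tlr9 at 3.64 and 2.58 and Tlr2 at 2.65 and 2.52. In sample 2, Tlr9 and Tlr2 were closer to each other than Tlr9 was between both Pax5-/- samples. Below them came Tlr6 at 0.889 and 1.52, and Tlr4, above Tlr2 in the wild type, at 0.200 and 0.114. Unc93b1 and Myd88 were above every receptor in the wild type (182 and 30.6 CPM per kilobase). In Pax5-/- sample 1, Tlr7 was above Myd88 (29.3), and in sample 2 below it (23.4).

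Endosomal receptors held most of the receptor signal in every library. Their share of the length-scaled sum over the 8 receptors was 93.7% and 84.2% in Pax5-/- and 75.9% in the wild type. Its make-up differed: Tlr7 was 86.8% and 74.1% of the sum in Pax5-/- and 25.6% in the wild type, and Tlr9 was 5.92% and 9.83% against 44.8%. The ratio of Tlr7 to Tlr9 was 14.7 and 7.53 in Pax5-/- and 0.572 in the wild type, so their order was opposite in the groups. Unc93b1 stood at 1.25 and 1.93 times the summed endosomal receptors in Pax5-/- and 6.86 times in the wild type. With 2 libraries against 1, no exact permutation test of these shares can reach 0.05, and none was made.

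**Figure D4:**
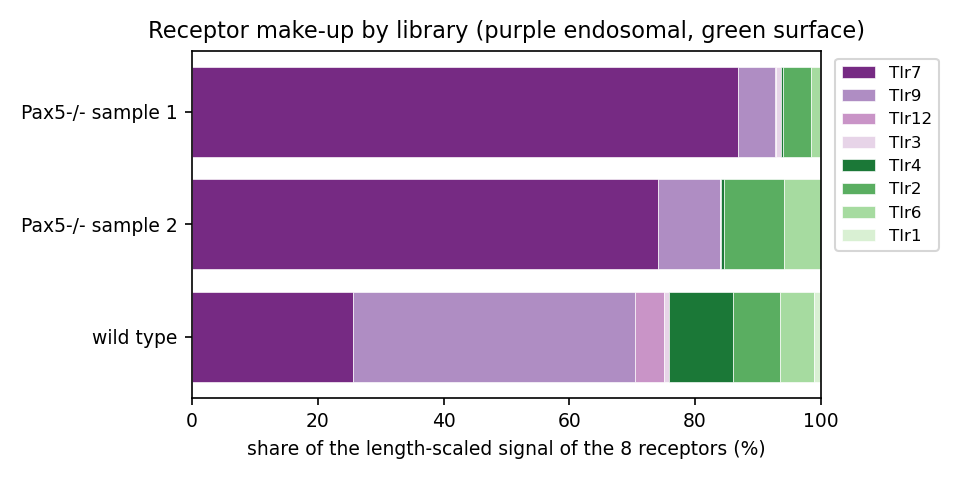
Share of each receptor in the length-scaled signal of all 8 receptors, one bar per library, with endosomal receptors in purple and surface receptors in green. Tlr7 takes 86.8% and 74.1% of the Pax5-/- bars and 25.6% of the wild-type bar, where Tlr9 takes 44.8%.

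The other receptors of the family were at or near 0. Tlr8, Tlr11 and Tlr13 had no counts in any library and Tlr5 had 1, in the wild type. A count of 0 allows up to 3 counts, or 0.467 CPM in the wild-type library and 0.462 and 0.440 CPM in the Pax5-/- libraries.

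Of 54 other genes of the pathway, 46 were tested, 3 rose, 9 fell and 34 were not called. The share called was 26.1%, beside 18.1% of all genes tested (9.53% higher and 8.55% lower), and it ran from 11.1% of the kinases and ligases to 41.7% of the transcription factors and feedback genes. Among 5 coreceptors, 3 were tested and 1 fell. Ly86 (MD-1), the partner of the Toll-like molecule Cd180 (RP105), had 270 counts in wild-type cells and, in Pax5-/- cells, 16 in sample 1 and 3 in sample 2 for a log2 fold change of -4.86 (adjusted p = 0.0173, SE 0.64). It was -6.52 without sample 1 and -4.08 without sample 2. Cd180 itself had 1034 and 767 counts against 374 and was not called (log2 fold change 1.22, SE 0.27, adjusted p = 0.0526), although 6 of 9 other settings called it higher. In both Pax5-/- samples Cd180 stood above the wild-type level and Ly86 below it. Ly96 (MD-2), the partner of Tlr4, had 55, 42 and 40 counts (log2 fold change 0.23, SE 0.36, adjusted p = 0.687), and Cd14 had 0, 1 and 2.

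Of 8 genes of receptor folding and processing, 2 rose, 1 fell and 5 were not called. The endosomal proteases that cleave the receptors went both ways. Ctsl (cathepsin L) rose from 3.58 CPM to a mean of 15.1 ± 2.34 CPM (SD, n = 2), with an edgeR log2 fold change of 2.07 and adjusted p = 0.0256. Lgmn (asparagine endopeptidase) rose from 46.1 to 138 ± 19.9 CPM (log2 fold change 1.58, adjusted p = 0.0167, edgeR). Ctsb (cathepsin B) fell by 0.80 on the log2 scale (adjusted p = 0.0269). The calls of all 3 were lost with a biological coefficient of variation of 0.4, and that of Ctsb also in the likelihood ratio test. The folding factors Hsp90b1 (gp96) and Cnpy3 were not called, at log2 fold changes of -0.33 (SE 0.09, adjusted p = 0.0828) and 0.02 (SE 0.15, adjusted p = 0.935).

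Of 6 adaptors, 5 were tested and 1 fell. Pik3ap1 (BCAP), which links Toll-like and B-cell receptors to PI3 kinase, fell, with a log2 fold change of -1.78, SE 0.16 and adjusted p = 0.00847 (edgeR). This was lost with a coefficient of variation of 0.4. Tirap, Ticam1, Ticam2 and Tollip were not called, with log2 fold changes from -0.05 to 0.49. Of 19 kinases and ubiquitin ligases, 18 were tested, 1 rose, 1 fell and 16 were not called. Irak3 (IRAK-M), an inhibitor of Myd88 signalling found mainly in monocytes and macrophages, had 179 counts in wild-type cells and, in Pax5-/- cells, 9 in sample 1 and 19 in sample 2 (log2 fold change -3.72, SE 0.39, adjusted p = 0.0111). Irak1, a kinase recruited by Myd88, rose (log2 fold change 0.80 with SE 0.16, adjusted p = 0.0429). That call did not hold with the likelihood ratio test or a coefficient of variation of 0.4. Irak4 and Traf6, the kinase and ligase around Irak1, were not called, at 0.21 (SE 0.18, adjusted p = 0.444) and -0.44 (SE 0.14, adjusted p = 0.103).

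Of 12 transcription factors and feedback genes, 5 fell, 0 rose and 7 were not called. None was higher at an unadjusted p under 0.05 or by DESeq2 or limma-voom (0 each). Irf8, a factor of B-lineage and dendritic cells, fell from 2358 counts to 425 and 479 (log2 fold change -2.44 with SE 0.13, adjusted p = 0.00379). Nfkbia, which encodes the NF-κB inhibitor IκBα and is itself induced by NF-κB, had 255, 219 and 724 counts and fell by 1.66 (SE 0.18, adjusted p = 0.0118). Nfkb2, which encodes the p100 subunit, fell by 1.07 (SE 0.17, adjusted p = 0.0249), and Irf5, a factor activated through Myd88, by 0.90 (SE 0.14, adjusted p = 0.0254). The fifth was Tnfaip3 (A20), a feedback inhibitor, at an adjusted p of 0.0489 (edgeR). DESeq2 and limma-voom each called 4 of the list lower, without Tnfaip3. Nfkb1 was not called (log2 fold change -0.17, SE 0.13, adjusted p = 0.399). The calls of Nfkbia, Nfkb2 and Irf5 were lost with a coefficient of variation of 0.4. The median log2 fold change of the 46 tested pathway genes was -0.05, beside 0.01 over all genes tested.

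**Figure D5:**
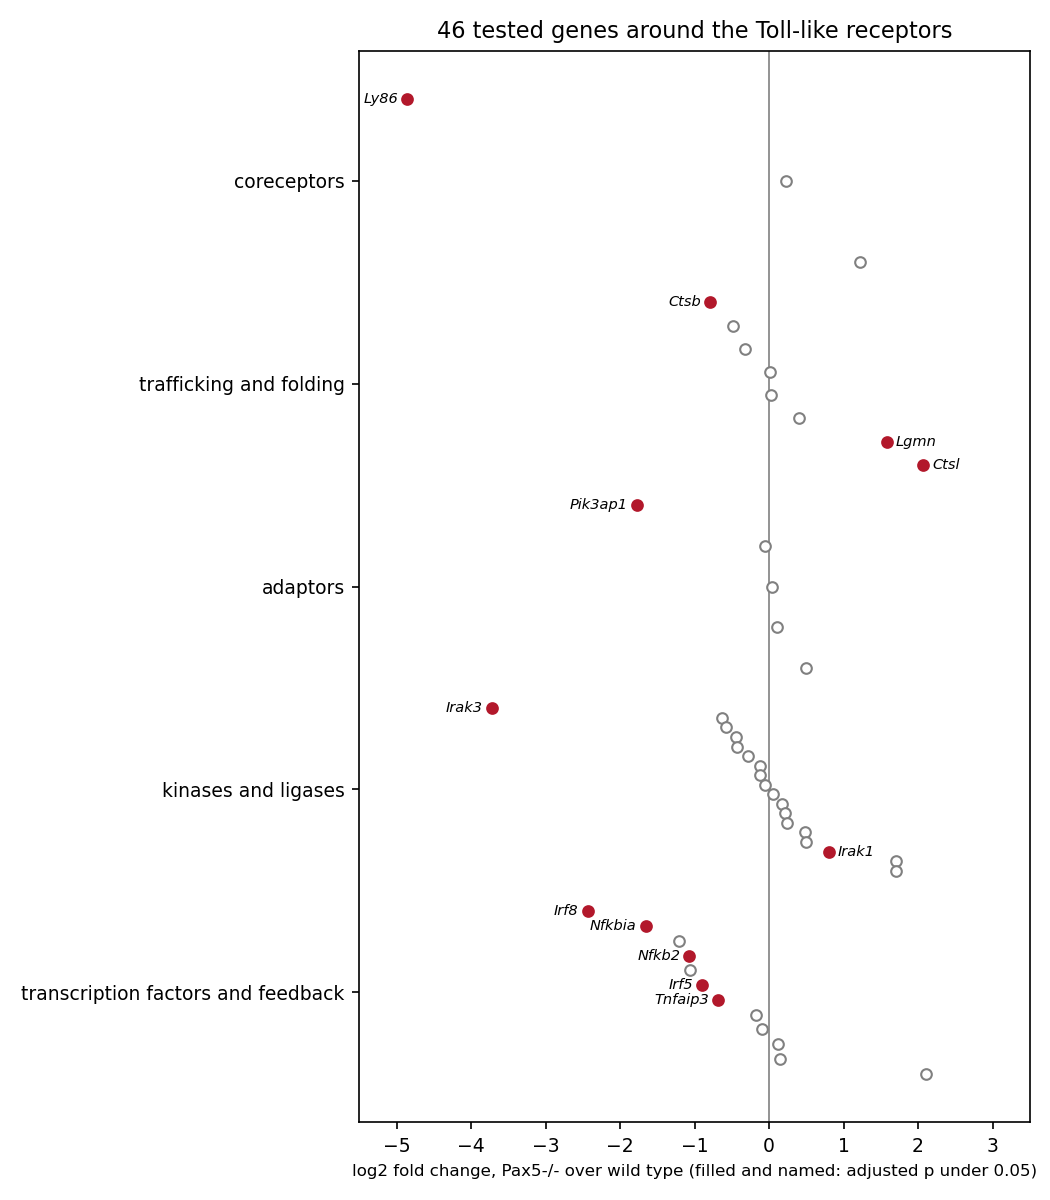
Fitted log2 fold change of Pax5-/- over wild type for the 46 tested pathway genes, 1 point per gene by role, filled and named where the adjusted p was under 0.05. Of the 12 filled points, 9 lie below 0, led by Ly86 and Irak3, and 3 above it (Ctsl, Lgmn and Irak1).

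The genes nearest to the 3 members of highest level were found by the distance between log2 CPM values centred over the 3 libraries, which is a description on 3 points. Nearest to Unc93b1 were Smim20 (88, 54 and 232 counts; distance 0.0448), Mns1 and 2610524H06Rik. Nearest to Tlr7 were P2ry13, a purine receptor (95, 44 and 18 counts; distance 0.247), B430306N03Rik and Acadl. Nearest to Myd88 were Lsm14a (1491, 1250 and 1542 counts; distance 0.0041), Ccng2 and Psmc6.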

How the data were processed

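RNA of pro-B cells from 3 samples was sequenced, with groups taken from the titles: 1 wild type and 2 Pax5-/-. The deposited values are whole-number gene counts, made by the authors with featureCounts on mm10, per the submitters' processing notes. Which aligner, annotation and strand option were used is not given in the sources used here. A gene length in bases, another deposited value, scaled levels per kilobase.

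The main test used edgeR 4.0.16 (R 4.3.3): filterByExpr (minimum count 10), TMM scaling, glmQLFit and glmQLFTest, Benjamini-Hochberg adjustment over 11783 genes, threshold 0.05. With 1 residual degree of freedom, moderated across genes with 3.15 prior degrees, the lone wild type is assumed to vary like Pax5-/-. SE is the coefficient over the root of F. Log2 CPM used a prior count of 2. Ratios carry exact Clopper-Pearson 95% intervals of counting error.

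Symbols and positions came from RefSeq of GRCm38.p6, the assembly mm10 names (25275 of 27179 numbers matched); exons and transcripts came from GENCODE M21. Alternatives used limma 3.58.1 and DESeq2 1.42.0, among others.

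The members and lists were chosen with earlier results of these data known. Pathway genes named were up to 4 called genes per list, by size of change at a mean of at least 1 CPM, and a fixed set of 10. Other genes outside this rule are counted only; Tnfaip3, marker genes, other adaptors, interferon genes, Acaa1a and cytosolic sensors were named after their values were seen. Of the marker genes, 2 are not reported here and were left out of their lists and sums.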

Additional observations from a re-analysis of the deposited data

How the results depend on the processing

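The calls of Tlr4, Tlr9 and Tlr12 held in all 9 settings that give a test. These settings share the same libraries, and Tlr4 and Tlr12 reached 10 counts only in the wild type, so the agreement is not independent support. Unc93b1 lost its call with library size alone (log2 fold change -1.64, adjusted p = 0.0510), DESeq2 (-1.67, adjusted p = 0.0600), robust dispersion estimation (-1.67, adjusted p = 0.0794) and a biological coefficient of variation of 0.4 (-1.67, adjusted p = 0.119). Tlr7 gained one in the likelihood ratio test (2.02, adjusted p = 0.0384). The causes were not tested. Calls over all genes numbered 2130, and 1206 with a coefficient of 0.4. The surface median moved to -1.57 with no filter, which adds Tlr1, and the endosomal median to -2.33 with the stricter filter, which removes Tlr3.

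Leaving out each Pax5-/- sample in turn leaves 1 library against 1 and no test. The log2 fold change then ranged from -4.90 to -4.12 for Tlr4, -2.02 to 0.88 for Tlr3, -1.10 to -0.33 for Tlr6, -8.09 to -3.98 for Tlr12 (a sample at 0, so no bound), 1.11 to 2.57 for Tlr7, -2.10 to -1.34 for Unc93b1, -6.52 to -4.08 for Ly86 and -1.95 to 3.06 for Irf7. The endosomal median ranged from -2.31 to -0.61 and the surface median from -1.10 to -0.33. No paired analysis was made, because there is 1 wild-type library and the sample titles name no pairs. Depth limits Tlr1, Tlr3, Tlr6 and Tlr12, with at most 33 counts in a library.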

Other observations

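A list of 12 sensors of nucleic acids and bacterial products outside the Toll-like family was drawn up after its values were seen. Of these, 3 rose, 1 fell and 8 were not called. The share called was 33.3%, beside 18.1% of all genes tested, but a list chosen that way cannot be read against the latter share. Cgas, the cytosolic DNA sensor, had 2 counts in wild-type cells and 480 and 250 in Pax5-/-, for a pooled ratio of 176 (exact counting interval 48.6 to 1457; adjusted p = 0.0146, edgeR). It reached the minimum count of 10 only in Pax5-/-, the group where Cgas is high. Sting1, the adaptor downstream of it, had 1532 and 1557 counts against 433, with 1.78 as log2 fold change (SE 0.14, adjusted p = 0.00625, edgeR). Aim2, another DNA sensor, had 364 and 343 counts against 177 (log2 fold change 0.95, adjusted p = 0.0303, edgeR). Tlr9, the endosomal DNA sensor, fell in the same libraries. Nlrp3, an inflammasome sensor, fell by 1.33 on the log2 scale (adjusted p = 0.0330, edgeR), with 106 and 84 counts against 231.

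The RNA helicase sensors were split by sample. Ddx58 (RIG-I) had 890 counts in wild-type cells and 2658 and 295 in Pax5-/- samples 1 and 2. In the same order, Ifih1 (MDA5) had 268, 1093 and 77, and Dhx58 (LGP2) had 409, 1398 and 90. All 3 lay above the wild type in Pax5-/- sample 1 and below it in sample 2, in the order of the interferon-stimulated genes, and none was called (0 by edgeR, DESeq2 or limma-voom, and 0 at an unadjusted p under 0.05). Their adaptor Mavs had 372 and 504 counts against 280 and was not called either (adjusted p = 0.142, edgeR).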
